A study of Homo sapiens with 6 samples.

Results

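The integrated stress response is described here through 10 genes at its core, in Huh7, a human liver cancer line, with TRIM15 knocked down. The genes are the transcription factors ATF4, ATF5 and DDIT3, and TRIB3, CHAC1, PPP1R15A, NUPR1, ASNS, DDIT4 and SESN2, which ATF4 or its partners are known to induce. They were chosen by gene name with the knockdown against control values of these same libraries already known, so those values are a description and support nothing by themselves. All 10 are among the 58735 gene rows of the table, and 9 passed the filter on low values. The knockdown group is 3 RNA sequencing libraries of cells with a short hairpin RNA against TRIM15, and the control group is 3 libraries of cells with a control hairpin; no other treatment is named for either. All 6 libraries share the line and its culture in RPMI-1640 with serum. The labels give neither the number of hairpins or clones nor whether replicates are separate cultures, so p-values measure the spread between these libraries, which may be technical.

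In the integrated stress response, kinases that sense a lack of amino acids, unfolded protein in the endoplasmic reticulum, double-stranded RNA or a lack of heme phosphorylate the translation factor eIF2. Most translation then slows, while ATF4 and a few other messages with upstream reading frames are translated more. ATF4 protein turns on genes for amino acid synthesis and uptake, and others that damp the response, restrain mTORC1 or, when stress lasts, promote cell death; liver cells use this program when amino acids run short. Much of the control of ATF4 lies in translation and phosphorylation, which transcript levels do not show.

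Short stretches upstream of 4 of the genes are shown because they hold, or lack, the letters that ATF4 and related factors of the bZIP type (basic leucine zipper) are known to bind. They come from RefSeq on GRCh38.p14, run 5′ to 3′ on the gene's own strand, and have the matched letters in capitals. Windows of 300 bases around the gene start were in the RefSeq table for 9 of the 10 genes, NUPR1 being the one without.

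CHAC1 (chr15:40953251-40953280, plus strand): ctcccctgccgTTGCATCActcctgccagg

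ASNS (chr7:97872458-97872487, minus strand): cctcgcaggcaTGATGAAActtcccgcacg

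PPP1R15A (chr19:48872352-48872381, plus strand): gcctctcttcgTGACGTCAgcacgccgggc

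SESN2 (chr1:28259398-28259517, plus strand): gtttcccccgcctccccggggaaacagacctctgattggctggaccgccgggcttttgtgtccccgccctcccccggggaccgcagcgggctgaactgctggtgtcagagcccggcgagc

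The composite letters TGATGNAA, searched on both strands, were found in 2 of the 9 windows, against 3.67% of 27305 windows in the table. In ASNS the match began 68 bases before the gene start, and in CHAC1 it lay 209 bases before it, on the opposite strand. The cyclic AMP element TGACGTCA, which reads the same on both strands, was found in 1 of the 9 windows, that of PPP1R15A at 58 bases before the start, and in 1.98% of all windows. No window of these genes held both motifs. The CHAC1 and ASNS stretches also lie in exons annotated in GENCODE 29, and those of PPP1R15A and SESN2 do not. SESN2 is shown as 1 of the 6 windows with neither. A match is a run of letters and not a measured binding site, and a window without one says nothing of sites farther away.

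Upstream AUG codons mark possible upstream reading frames. The genes were chosen from a response known for messages with such frames, so the counts may follow in part from the choice and are a description. In 1 annotated transcript per gene (GENCODE 29), 8 of the 10 genes had at least 1 AUG in the 5′ leader and 7 had at least 2, against 52.9% and 31.2% of 11398 genes tested for expression. Leader length was not matched: it ran from 20 bases (CHAC1) to 882 bases (ATF4) in the members, beside a median of 199 bases in those genes. An upstream frame that ran past the main start codon in another frame, the arrangement known to hold back ATF4 translation, was present in ATF4, ATF5 and DDIT3, and in 16.8% of those 11398 genes. The ATF4 leader differed between its annotated transcripts, with 280, 773 or 882 bases and 3, 6 or 7 upstream AUGs, and each of these held such an overlapping frame. CHAC1 and DDIT4 had 0 in the transcripts used, which for CHAC1 had a leader of only 20 bases; other CHAC1 transcripts had leaders of up to 622 bases with 4 upstream AUGs. The transcript chosen also mattered for DDIT3, where another principal transcript had 2 upstream AUGs and no overlapping frame, and for ASNS, where another had 0 upstream AUGs in place of 2.

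Values are FPKM, reads scaled by gene length and library size as the authors deposited them. For ATF5, DDIT3, ASNS and DDIT4 this length equals all annotated exonic bases, which can exceed the transcripts in use. Levels of different genes can therefore be set side by side only roughly. Whole reads per gene could be counted back from FPKM and came to 17332508 to 19556855 per library. The library size implied by FPKM minus this sum was 1.04 to 1.27% in knockdown and -0.37 to -0.36% in control libraries. The fits by voom on whole reads below use the sums, so they set knockdown libraries slightly higher against control libraries than FPKM does. TRIM15, an E3 ubiquitin ligase and the target of the hairpin, was at 3.23, 2.11 and 2.51 FPKM in the knockdown libraries, against 5.17, 5.09 and 4.88 FPKM in the control libraries. None of the 9 liver cell markers searched was below 0.5 FPKM in all libraries, and they summed to 1551 to 1584 FPKM in knockdown and 1558 to 1598 FPKM in control libraries, with albumin (ALB) at 928 ± 10.3 FPKM in knockdown and 899 ± 10.2 FPKM in control libraries (SD, n = 3 each). The sums do not show single markers: FGB averaged 233 FPKM in knockdown and 271 FPKM in control libraries, and TF 37.5 and 40.0 FPKM. FGB and TF were lower past the threshold given below, and the other liver cell markers were not past it. Of the markers of other cell types, 4 of 4 endothelial, 4 of 5 immune and 3 of 6 fibroblast markers stayed below 0.5 FPKM in all libraries. The endothelial marker CDH5 was at 0 in all 6 libraries, and the immune marker PTPRC was at 0.0331 FPKM or less. The endothelial markers summed to 0.251 to 0.398 FPKM in knockdown and 0.307 to 0.433 FPKM in control libraries, and the immune markers to 13.4 to 14.2 FPKM in knockdown and 13.5 to 14.6 FPKM in control libraries, nearly all of it CD14. The fibroblast markers summed to 55.6 to 57.8 FPKM in knockdown and 62.4 to 66.2 FPKM in control libraries. Most of it was LUM, at 50.7 ± 1.25 FPKM in knockdown and 57.6 ± 1.95 FPKM in control libraries (SD, n = 3 each). COL1A2 averaged 4.66 FPKM in knockdown and 5.39 FPKM in control libraries. LUM and COL1A2 were also lower past the threshold given below, and COL1A1 and CD14 were not past it. The part of such expression in the results below was not tested.

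Fold changes are given as log2 of knockdown over control of FPKM + 1, a scale on which changes of low genes look smaller than they are. In bulk libraries, fewer cells with a transcript and less of it per cell cannot be told apart. A gene was called when its adjusted p was under 0.05 (limma across all 14847 genes with at least 0.5 FPKM in 3 or more libraries). Of the 9 genes tested, 7 were called higher, where 8.93% of all genes tested were called higher. None was called lower, where 10.1% of all genes were; limma gave 0 lower also at an unadjusted p under 0.05, and limma voom on whole reads gave 0. In 8 of the 9 every knockdown library lay above every control library, which held for 18.8% of all genes tested. The median log2 fold change of the 9 was 0.37, beside 0.0014 for all genes tested, and their values ran from 0.09 to 0.56. Since the genes were chosen with this contrast known, nothing is read from these counts. The count of all genes called higher was 1326, and it was 829, 851 and 792 without knockdown replicate 1, 2 and 3 and 884 without control replicate 2.

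**Figure D1:**
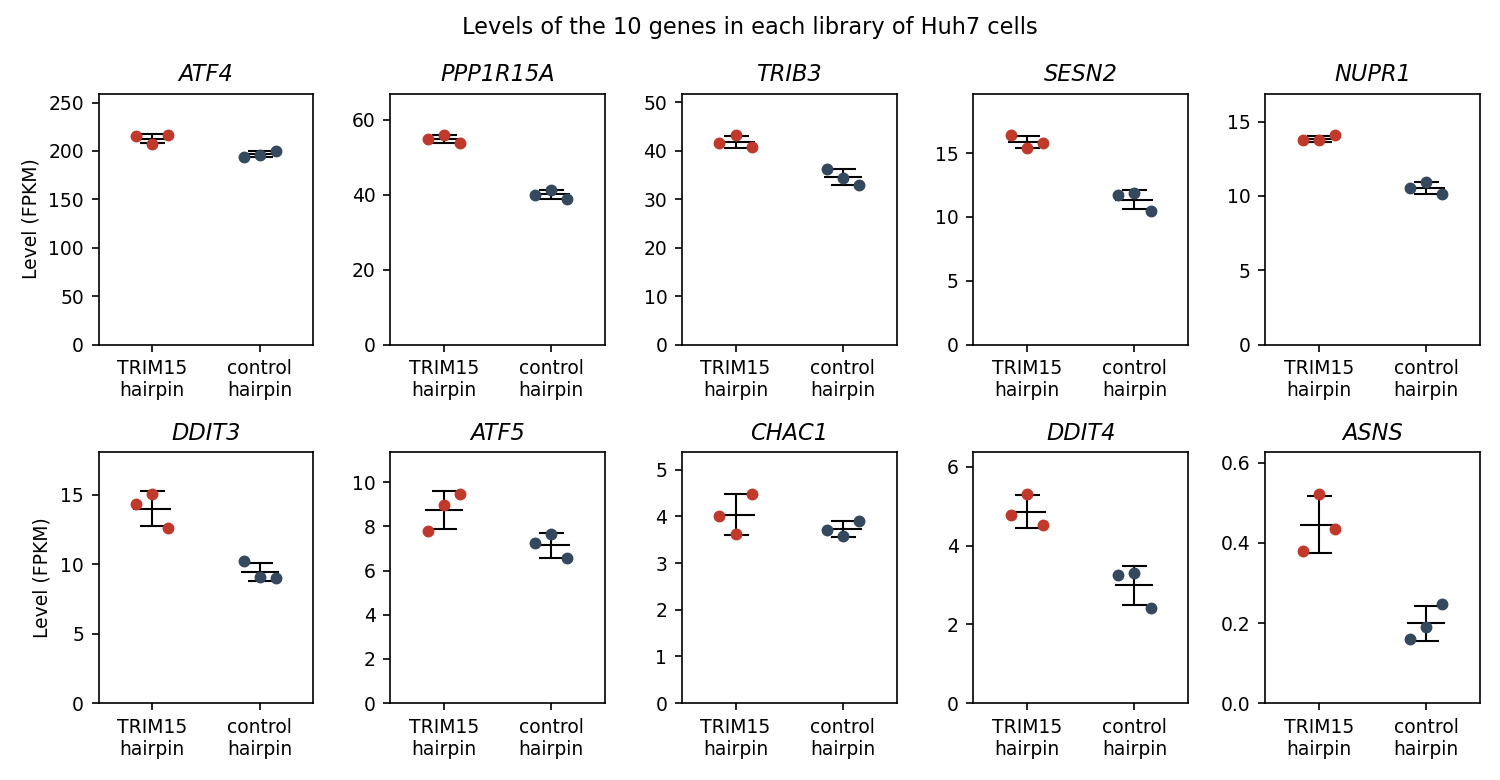
Level in FPKM (vertical axes, each from 0) of the 10 genes, with 1 point per library, TRIM15 hairpin on the left and control hairpin on the right; the horizontal bar is the mean and the whiskers are the SD of 3 libraries. The groups overlap only for CHAC1, and ASNS lies below 0.6 FPKM in every library.

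The factor at the head of the response was abundant and differed little. ATF4 (ENSG00000128272, chromosome 22, 39519695 to 39522685 on GRCh38) was at 215, 207 and 216 FPKM in knockdown replicates 1 to 3, against 194, 196 and 199.7 FPKM in control replicates 1 to 3. Every knockdown library was above every control library, but the highest control and the lowest knockdown library lay close together. The mean was 213 ± 4.70 FPKM in knockdown and 197 ± 2.93 FPKM in control libraries (SD, n = 3 each), 108% of control, with a log2 fold change of 0.11 (SE 0.0222). ATF4 ranked 157th in level among the genes tested. Its call was the least secure of the 7, and adjusted p was 0.0519, 0.0531 and 0.0503 without knockdown replicate 1, knockdown replicate 3 or control replicate 2, and 0.0749 in limma without a variance trend. Processed copies of ATF4 in the genome can share its reads; the most abundant, ATF4P3, was at 0.755 to 1.15 FPKM in knockdown and 0.59 to 0.995 FPKM in control libraries.

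ATF5, a bZIP factor related to ATF4 and linked to the mitochondrial stress response, lay on chromosome 19 (49928702 to 49933935). It was at 7.79, 8.98 and 9.47 FPKM in knockdown and 7.23, 7.63 and 6.55 FPKM in control libraries. The groups did not overlap, although the lowest knockdown library was only just above the highest control library. With a log2 fold change of 0.26 (SE 0.0774) the gene was not past the threshold (adjusted p = 0.06); it was past it without knockdown replicate 1 (0.0295), with a filter at 1 FPKM (0.047) and with voom on whole reads (0.00131). NUP62, on the opposite strand, covers 626 of the 2954 exonic bases of ATF5 and was at 27.4 FPKM in knockdown and 26.0 FPKM in control libraries on average.

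DDIT3 encodes CHOP, the bZIP factor that drives the death arm of the response. It lies on chromosome 12 (57516588 to 57521737) and had 14.3, 15.1 and 12.6 FPKM in knockdown libraries, against 10.2, 9.06 and 9.02 FPKM in control libraries. All 3 knockdown libraries were above all 3 control libraries, at 148% of the control mean and with a log2 fold change of 0.52 (SE 0.0722). On the opposite strand, MARS, a methionyl-tRNA synthetase gene, covers 355 of the 1307 exonic bases of DDIT3 and MBD6 covers 58. MARS was at 49.0 ± 0.619 FPKM in knockdown and 48.8 ± 0.174 FPKM in control libraries (SD, n = 3 each), and MBD6 averaged 9.49 FPKM in knockdown and 7.51 FPKM in control libraries. The library kit marked strand, per the labels, but the sources used here do not give whether the counting did, and the part of opposite-strand reads in DDIT3 and ATF5 was not tested.

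PPP1R15A and TRIB3, which act back on the pathway, had separate groups with knockdown libraries on top, as did NUPR1. PPP1R15A (GADD34) brings a phosphatase to eIF2 and ends the block on translation. It was at 54.8, 55.8 and 53.8 FPKM in knockdown libraries and at 40.0, 41.1 and 38.9 FPKM in control libraries. The gap between the groups was far wider than the spread within either, at 137% of control and a log2 fold change of 0.44 (SE 0.0272). TRIB3, a pseudokinase that binds ATF4 and AKT, was at 41.5, 43.2 and 40.9 FPKM in knockdown and 36.3, 34.5 and 33.0 FPKM in control libraries. The log2 fold change of TRIB3 was 0.27 (SE 0.0389), the groups did not overlap, and its ratio to control, 121%, was smaller than that of PPP1R15A. NUPR1, a small chromatin-associated stress protein, was at 13.7, 13.7 and 14.1 FPKM in knockdown and 10.5, 10.9 and 10.1 FPKM in control libraries. The groups did not overlap, the SD of the knockdown libraries was only 0.195 FPKM, and its log2 fold change was 0.37 (SE 0.0344).

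The members known to restrain mTORC1, the kinase complex that promotes growth, are DDIT4 and SESN2, both called higher. DDIT4 (REDD1), which acts through the TSC complex, was at 4.77, 5.31 and 4.51 FPKM in knockdown and 3.25, 3.30 and 2.41 FPKM in control libraries. Every knockdown library was above every control library, with the third control library well below the other two. DDIT4 averaged 163% of control, with a log2 fold change of 0.56 (SE 0.101), and 0.45 without control replicate 3. An antisense gene, DDIT4-AS1, covers 847 of its 2058 exonic bases but was listed at 0 in all libraries. SESN2, a leucine sensor that acts on GATOR2, was at 16.4, 15.4 and 15.8 FPKM in knockdown and 11.7, 11.8 and 10.5 FPKM in control libraries. The SESN2 groups were separate, at 140.0% of control and a log2 fold change of 0.45 (SE 0.0491).

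The members that act on glutathione and amino acids, CHAC1 and ASNS, had no call. CHAC1 degrades glutathione. It was at 4.02, 3.61 and 4.48 FPKM in knockdown and 3.71, 3.58 and 3.91 FPKM in control libraries, on 130 to 162 reads per library. The groups overlapped, and the log2 fold change of 0.09 (SE 0.0700) was not past the threshold under any alternative run. ASNS, asparagine synthetase, was at 0.381, 0.523 and 0.435 FPKM in knockdown and 0.161, 0.191 and 0.247 FPKM in control libraries, too low for the filter. These levels are 32, 46 and 34 reads in knockdown libraries and 13, 15 and 20 reads in control libraries. The lowest knockdown count had an exact Poisson 95% interval of 21.9 to 45.2 and the highest control count one of 12.2 to 30.9, so these 2 intervals overlap, although the groups of 3 do not. The mean was 223% of control, but the log2(FPKM + 1) difference was only 0.27. A fit with no filter gave adjusted p = 0.0799, and voom on whole reads with no filter, added after the data were seen, gave a log2 fold change of 1.17 and adjusted p = 0.0154. AC079781.5, on the same strand, shares 1985 of the 4455 exonic bases of ASNS and how shared reads were assigned is not given, so the ASNS level is uncertain. The pseudogene ASNSP1 was at 0.924 to 1.496 FPKM in knockdown and 0.913 to 1.23 FPKM in control libraries, above ASNS itself in every library.

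**Figure D2:**
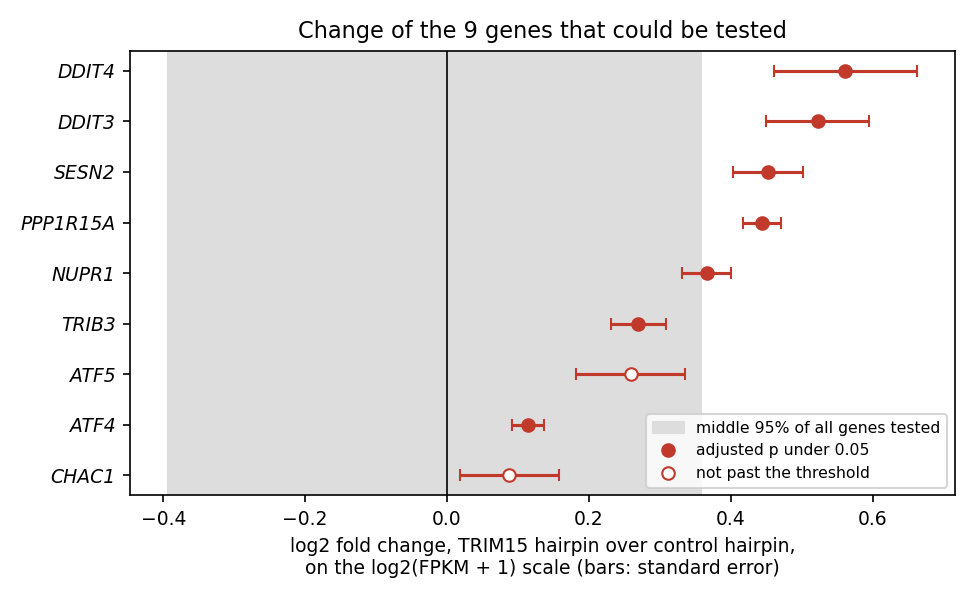
Log2 fold change of TRIM15 hairpin over control hairpin on the log2(FPKM + 1) scale for the 9 genes tested, with standard errors; filled points have an adjusted p under 0.05, and the grey band holds the middle 95% of all genes tested (-0.39 to 0.36). DDIT4, DDIT3, SESN2, PPP1R15A and NUPR1 lie right of the band, and CHAC1 and ATF4 lie nearest to 0.

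In level, the order was ATF4, PPP1R15A, TRIB3, SESN2, DDIT3, NUPR1, ATF5, DDIT4, CHAC1 and ASNS in knockdown libraries. DDIT3 and NUPR1 overlapped in that order and the other neighbours did not. In control libraries the order was ATF4, PPP1R15A, TRIB3, SESN2, NUPR1, DDIT3, ATF5, CHAC1, DDIT4 and ASNS. There the ranges of SESN2 and NUPR1 and of NUPR1 and DDIT3 overlapped. The genes thus spanned a 984-fold range of mean level in control libraries. This range rests on ASNS, which was below the filter and whose level is uncertain. The next lowest gene, DDIT4, averaged 2.99 FPKM in control libraries, beside 197 FPKM for ATF4. CHAC1 and DDIT4 stood in opposite order in the groups, without overlap between them in either.

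No library was the highest or the lowest of its group for all 10 genes, but control replicate 3 was often the lowest. Knockdown replicate 2 was the highest of its group for 5 genes and the lowest for 4, and knockdown replicate 3 was the highest for 4 and the lowest for 4. Control replicate 3 was the lowest of its group for 7 of the 10 genes and the highest for the other 3, ATF4, CHAC1 and ASNS. The coefficient of variation of NUPR1 in knockdown libraries, 1.41%, was below the 2.61% that counting error gives, while that of DDIT4 in control libraries, 16.8%, was above its counting error of 9.59%. Without control replicate 3, 7 members were called higher. The log2 fold changes of ATF5, DDIT3, TRIB3, PPP1R15A, NUPR1, DDIT4 and SESN2 were then smaller (SESN2 0.40 in place of 0.45). Those of ATF4 and CHAC1 were then larger. These directions follow from whether control replicate 3 was the lowest or the highest of its group, so they are no separate result.

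Upstream of ATF4 act the sensing kinases and the translation factors they control. In this and the other lists, the counts stand beside 8.93% of all genes tested called higher and 10.1% called lower. Of 8 eIF2 kinases and their regulators, 1 was higher and 1 lower, with a median log2 fold change of 0.02 beside 0.0014 for all genes. EIF2AK2 (PKR), the kinase that senses double-stranded RNA, fell to 2.62, 2.86 and 2.80 FPKM in knockdown, against 3.25, 3.41 and 3.61 FPKM in control libraries (log2 fold change -0.23, adjusted p = 0.0249). That call ended without control replicate 2 or 3 or any 1 knockdown library, with adjusted p up to 0.0791 without knockdown replicate 1. GCN1, an activator of the amino acid sensor kinase, was called at adjusted p = 0.04998 with a log2 fold change of 0.09, and lost the call without any 1 of the 6 libraries (up to 0.147 without knockdown replicate 3). GCN1 lost it also at a pseudocount of 0.25 and with quantile or median ratio scaling. EIF2AK3 (PERK), the kinase of the endoplasmic reticulum, was at 8.79 ± 0.404 FPKM in knockdown and 8.50 ± 0.193 FPKM in control libraries (SD, n = 3 each) and was not called (adjusted p = 0.523). EIF2AK1 and EIF2AK4, the heme and amino acid sensors, were not called either (adjusted p = 0.865 and 0.869).

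Among 8 eIF2 and eIF2B subunits, 0 were higher and 2 lower by limma (0 higher also at an unadjusted p under 0.05 and by voom), with a median of 0.02. EIF2S1, the subunit that the kinases phosphorylate, fell to 13.5, 14.2 and 13.2 FPKM in knockdown, against 15.1, 15.3 and 14.98 FPKM in control libraries (log2 fold change -0.14, adjusted p = 0.0288). The call ended without any 1 library other than knockdown replicate 2, with adjusted p up to 0.0908 without knockdown replicate 3. EIF2S2, another eIF2 subunit, was lower by a log2 fold change of -0.08 (adjusted p = 0.0374). That call ended without any 1 library other than control replicate 2 (up to 0.117 without knockdown replicate 3). The EIF2S2 call ended also with no filter, without a variance trend, with the replicate block and by voom. The 5 eIF2B subunits were not called.

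The phosphatase side includes a close relative of PPP1R15A. PPP1R15B, the partner that is made without stress, was at 16.4, 16.2 and 15.7 FPKM in knockdown and 17.4, 17.8 and 16.9 FPKM in control libraries. Its groups did not overlap either, with knockdown libraries on the lower side, but its log2 fold change of -0.10 was not past the threshold (adjusted p = 0.0602). Of the 4 phosphatase partners listed, 0 were higher by limma (0 at an unadjusted p under 0.05, 1 by voom) and PPP1CA, a catalytic subunit, was lower (-0.11, adjusted p = 0.0201); that call ended without knockdown replicate 2 or 3 or control replicate 1 or 2 (up to 0.0703 without knockdown replicate 3). PPP1R15A, which stress induces, thus averaged 54.8 FPKM in knockdown and 40.0 FPKM in control libraries, while PPP1R15B averaged 16.1 FPKM in knockdown and 17.4 FPKM in control libraries.

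**Figure D3:**
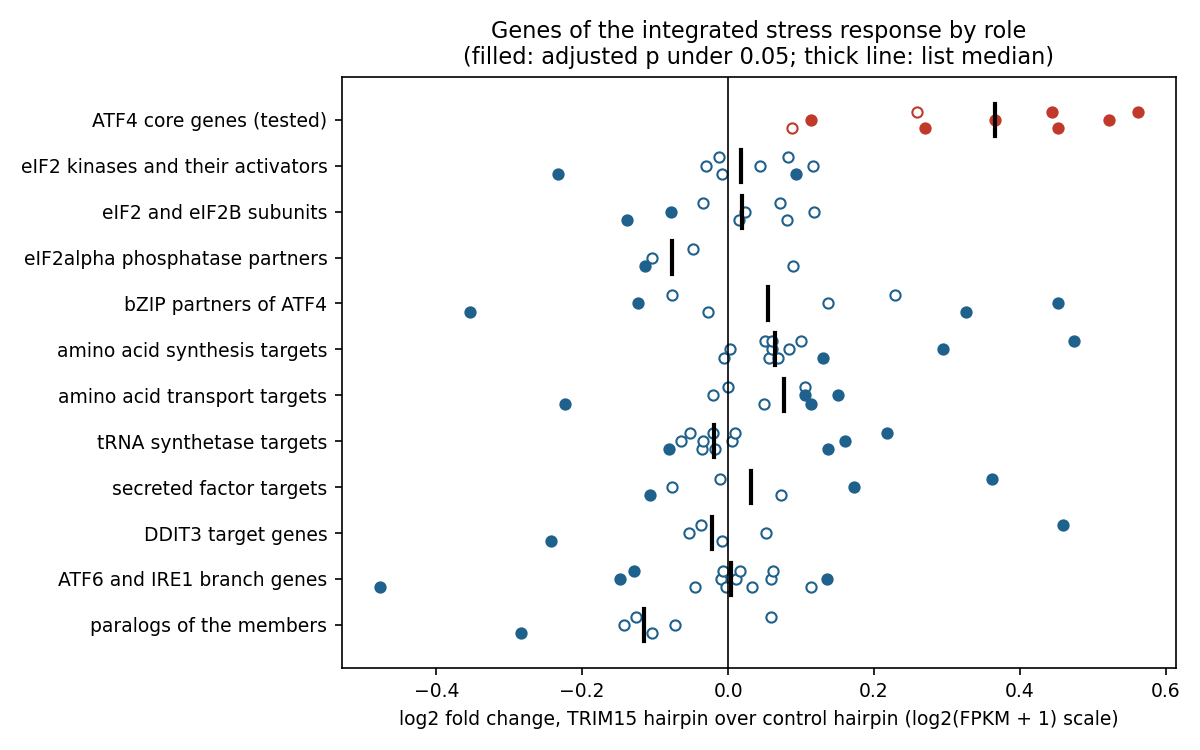
Log2 fold change of TRIM15 hairpin over control hairpin (log2(FPKM + 1) scale) for every tested gene of 11 lists, below the 9 tested core genes. The lists cover the integrated stress response, the other branches of the unfolded protein response and paralogs of the core genes. Filled points have an adjusted p under 0.05 and the thick line is the median of a list. The core genes were chosen with these values known; the medians of the other lists lie between -0.12 and 0.08.

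bZIP proteins that can pair with ATF4 moved both ways, with 2 of 8 higher, 2 lower and a median of 0.05. ATF3, itself a target of ATF4 and an early stress gene, rose to 14.7, 13.4 and 14.3 FPKM in knockdown, against 9.90, 9.93 and 10.3 FPKM in control libraries (log2 fold change 0.45, SE 0.0407, adjusted p = 0.000828). JUN rose to 51.7 ± 0.798 FPKM in knockdown, against 41.0 ± 1.35 FPKM in control libraries (SD, n = 3 each; 0.33, adjusted p = 0.000745). CEBPA, a liver differentiation factor, fell to 55.6 ± 0.700 FPKM, against 71.4 ± 3.94 FPKM in control libraries (SD, n = 3 each; -0.35, adjusted p = 0.00171). NFE2L2 (NRF2), the factor of the oxidative stress response, fell by 0.12 on the log2 scale (adjusted p = 0.0119), a call that ended in limma without a variance trend (0.0524). CEBPB and CEBPG, partners known for ATF4, were not called (adjusted p = 0.754 and 0.142).

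Of 39 further targets of ATF4 in 4 lists, 38 were tested; 11 were higher and 3 lower, with a median of 0.05, where 8.93% of all genes tested were higher and 10.1% lower. Amino acid synthesis genes had 3 of 12 higher and 0 lower by limma (0 lower also at an unadjusted p under 0.05 and by voom, which called 7 higher), with a median of 0.06. CTH, which makes cysteine, rose to 4.57, 5.28 and 4.25 FPKM in knockdown, against 2.73, 3.03 and 3.56 FPKM in control libraries (log2 fold change 0.47, SE 0.0946, adjusted p = 0.0151). Its adjusted p was 0.0511 without control replicate 2 and 0.0534 with no filter on low values. The alanine transaminase gene GPT2 rose to 10.5 ± 0.0110 FPKM, against 8.37 ± 0.161 FPKM in control libraries (SD, n = 3 each; 0.29). PHGDH, the first enzyme of serine synthesis, rose by 0.13 on the log2 scale (adjusted p = 0.00539), while the later enzymes PSAT1 (0.06, adjusted p = 0.0629) and PSPH (-0.01, adjusted p = 0.893) were not called.

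Amino acid transport genes had 3 of 8 higher and 1 lower, with a median of 0.08. SLC3A2, the heavy chain of several transporters, rose to 76.1 ± 2.24 FPKM in knockdown, against 68.5 ± 0.699 FPKM in control libraries (SD, n = 3 each; log2 fold change 0.15, adjusted p = 0.00857). Its partner SLC7A5 (0.11, adjusted p = 0.0277) and the glutamine carrier SLC1A5 (0.11, adjusted p = 0.0152) were also called. SLC7A5 lost the call without any 1 library other than knockdown replicate 1 (up to 0.0872 without knockdown replicate 2), and SLC1A5 without knockdown replicate 1 or 2 or control replicate 2 (up to 0.0588 without knockdown replicate 2). SLC38A2, a neutral amino acid carrier, fell to 90.1, 91.5 and 88.1 FPKM, against 104, 103 and 108 FPKM in control libraries (-0.22, adjusted p = 0.00196). SLC7A11, the cystine carrier, was at 1.88 ± 0.128 FPKM in knockdown and 1.88 ± 0.127 FPKM in control libraries (SD, n = 3 each) and was not called (adjusted p = 0.999).

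Transfer RNA synthetase genes had 3 of 12 higher and 1 lower, with a median of -0.02. CARS, for cysteine, was higher by 0.22 (adjusted p = 0.00746). SARS (0.16, adjusted p = 0.026), YARS (0.14, adjusted p = 0.0194) and AARS (-0.08, adjusted p = 0.0286) were also called, but not securely. SARS lost the call without knockdown replicate 1 or 2 or control replicate 1 or 2 (up to 0.0812 without control replicate 2). YARS lost it without any 1 library other than control replicate 1 (up to 0.0703 without knockdown replicate 3), and AARS without any 1 library other than control replicate 3 (up to 0.0964 without knockdown replicate 2).

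The list of secreted factors had 2 of 6 tested genes higher and 1 lower, with a median of 0.03. This list also holds VLDLR, a receptor gene, which was not called (log2 fold change -0.08, adjusted p = 0.579). STC2, a stanniocalcin, rose to 6.19, 6.40 and 6.01 FPKM in knockdown, against 4.65, 4.72 and 4.44 FPKM in control libraries (log2 fold change 0.36, SE 0.0410, adjusted p = 0.00178). GDF15, a stress cytokine, was higher by 0.17 (adjusted p = 0.022), a call that ended without knockdown replicate 3 or control replicate 1 or 3 (up to 0.0661 without control replicate 3). The angiogenic factor VEGFA was lower by a log2 fold change of -0.11 (adjusted p = 0.0397), and that call ended without any 1 of the 6 libraries (up to 0.117 without knockdown replicate 3). FGF21, a liver hormone induced by ATF4, did not reach 0.5 FPKM in any library and was not tested.

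Of 6 genes known to act below DDIT3, 1 was higher and 1 lower, with a median of -0.02, beside 8.93% of all genes called higher and 10.1% called lower. BBC3 (PUMA), a death effector, rose to 6.43, 6.56 and 6.57 FPKM in knockdown, against 4.59, 5.15 and 3.76 FPKM in control libraries (log2 fold change 0.46, adjusted p = 0.0135). ERO1A, an oxidase of the endoplasmic reticulum, fell to 6.98 ± 0.324 FPKM, against 8.44 ± 0.185 FPKM in control libraries (SD, n = 3 each; -0.24, adjusted p = 0.00822). The death receptor gene TNFRSF10B was not called (-0.05, adjusted p = 0.198).

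The other branches of the unfolded protein response, led by ATF6 and IRE1, had 1 of 14 genes higher and 3 lower, with a median of 0.0039. The chaperone gene HSPA5 (BiP), a common marker of these branches, was at 216, 212 and 210.4 FPKM in knockdown and 216, 219 and 223 FPKM in control libraries and was not called (log2 fold change -0.05, adjusted p = 0.149). XBP1 (adjusted p = 0.833) and DNAJB9 (adjusted p = 0.956) were not called either. EDEM1, which helps to dispose of misfolded glycoproteins, fell to 10.1 ± 0.0341 FPKM, against 14.5 ± 0.691 FPKM in control libraries (SD, n = 3 each; -0.48, adjusted p = 0.000565), and the chaperone PDIA4 fell as well (-0.15, adjusted p = 0.00299). HSP90B1 (-0.13, adjusted p = 0.0191) lost its call without any 1 library other than control replicate 1 (up to 0.0692 without knockdown replicate 3), and CRELD2 (0.14, adjusted p = 0.0471) without any 1 library other than knockdown replicate 2 (up to 0.135 without knockdown replicate 3).

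Over all lists, 16 of 91 tested genes were higher and 14 lower, or 11 to 13 and 6 to 8 with 1 library left out, except that 9 were higher without control replicate 2. Of all genes tested, 8.93% were higher and 10.1% lower. The median log2 fold change was 0.01. By voom 24 were higher and 13 lower.

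**Figure D4:**
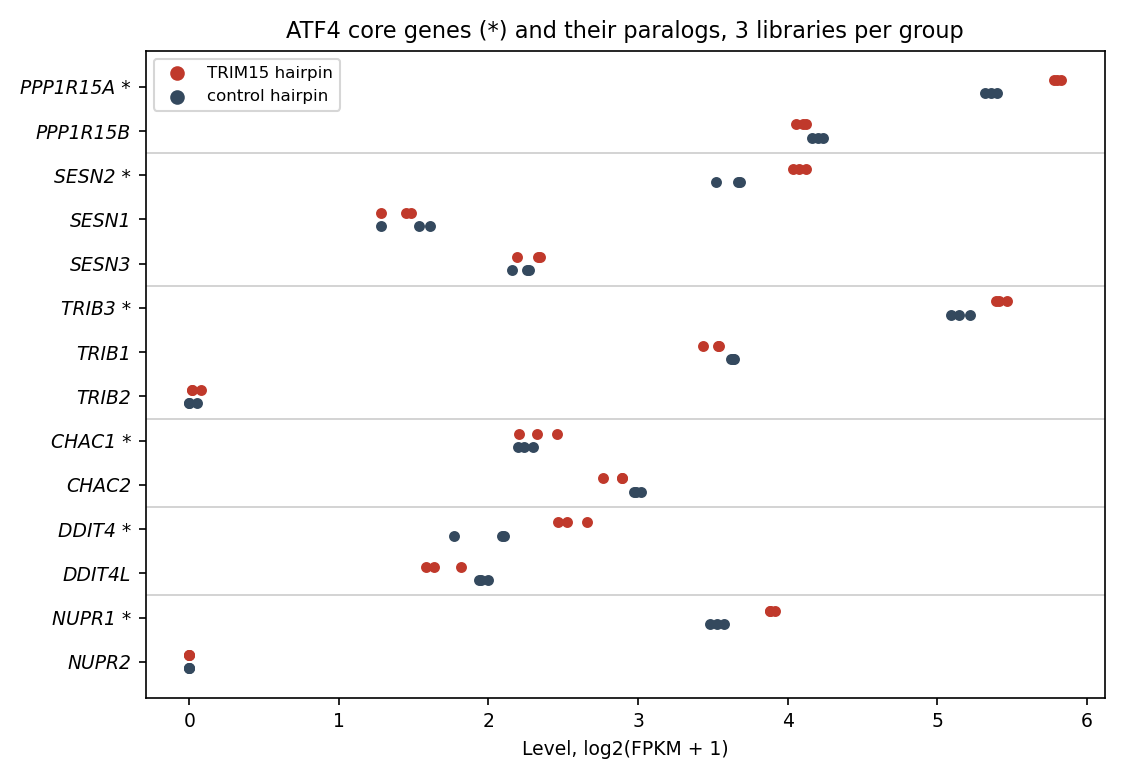
Level as log2(FPKM + 1) of 6 core genes (starred) and their paralogs, with 1 point per library, TRIM15 hairpin above control hairpin in each row. The starred genes other than CHAC1 have knockdown points to the right of the control points; those of PPP1R15B, TRIB1, CHAC2 and DDIT4L lie to the left.

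Of 8 paralogs of the core genes, 6 were tested, of which 0 were higher and 1 lower by limma (0 higher also at an unadjusted p under 0.05 and by voom), with a median of -0.12. With 8.93% of all genes called higher, a count of 0 among 6 is near the background. DDIT4L, related to DDIT4, was at 2.51, 1.99 and 2.11 FPKM in knockdown and 2.99, 2.82 and 2.87 FPKM in control libraries (log2 fold change -0.28, adjusted p = 0.0341). It lost the call without any 1 library other than knockdown replicate 1 (up to 0.102 without knockdown replicate 3). TRIB1, related to TRIB3, was at 10.3 ± 0.468 FPKM in knockdown and 11.4 ± 0.0931 FPKM in control libraries, and CHAC2, related to CHAC1, at 6.21 ± 0.369 FPKM in knockdown and 6.95 ± 0.120 FPKM in control libraries (SD, n = 3 each); neither was called (adjusted p = 0.0595 and 0.0767). SESN1 and SESN3 were not called (adjusted p = 0.682 and 0.56), and TRIB2 and NUPR2 were too low to test. The difference between each member and its paralog was not tested.

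Among the genes whose profile over the 6 libraries was most like the mean of the 9 tested members were CIRBP, COL27A1, HDGFL2 and LONP1. Likeness was the root mean square difference of log2(FPKM + 1) values centred on the control mean, compared in 10437 protein-coding genes that averaged 100 reads or more, and it ran from 0.0199 for CIRBP to 0.0263 for LONP1. CIRBP, a cold-inducible RNA-binding protein gene, was at 16.5, 17.0 and 17.0 FPKM in knockdown and 13.3, 13.0 and 12.6 FPKM in control libraries, and LONP1, a mitochondrial protease gene, at 33.6, 35.1 and 34.6 FPKM in knockdown and 26.7, 27.0 and 25.4 FPKM in control libraries. The mean profile of the members was 0.33, 0.35 and 0.34 in knockdown replicates 1 to 3, against 0.03, 0.03 and -0.06 in control replicates 1 to 3, on the same scale. Most of this likeness is the difference between the groups, which the members were chosen with in view.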

How the data were processed

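The deposited table holds FPKM values that the authors computed, per the file headers and name, in 1 column per library with a gene length column. The aligner, the counter and the use of strand are not given in the sources used here. The submitters' processing notes name the mouse build mm10, yet 58735 of 58735 rows have the identifier, start, end and strand of human GENCODE 29 (GRCh38), which was used here. Whole reads were recovered from FPKM and gene length for 100% of values above 0 (tolerance 0.1 reads). Intervals on reads cover counting error only.

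Samples were grouped by their titles, 3 libraries a group. Log2(FPKM + 1) values of genes with at least 0.5 FPKM in 3 libraries were fitted with limma 3.58.1 in R 4.3.3 (variances moderated towards a trend). P-values are two-sided and adjusted by the method of Benjamini and Hochberg over every gene tested. SE comes from this fit. Alternatives were pseudocounts of 0.25 and 2, no filter, a filter at 1 FPKM, quantile and median ratio scaling, no variance trend, voom on whole reads, a replicate block and leaving out each library. Motifs and upstream AUGs were counted in Python 3.11.15. For upstream AUGs, 1 protein-coding transcript per gene was used, taking APPRIS principal transcripts first, then the best support level, the longest coding sequence and the longest leader.

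The members and lists were chosen with earlier results of these data known. All members are named, and of each list the called genes with the largest change, up to 4; further genes of the lists were named after their values were seen, for their known roles. Lists have no test of their own. Of the 5 genes most like the members, 1 is not reported here.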

Additional observations from a re-analysis of the deposited data

How the results depend on the processing

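The number of members called higher (7) was 6 to 7 with 1 library left out and 6 to 8 under the other pseudocounts, filters, scalings, variance model, voom and the replicate block. None was called lower under any of these. Of 137 values of single members, 129 were counted as unchanged and 0 changed sign. The 8 exceptions were ATF4 (4 lost calls), ATF5 (3 gained calls) and ASNS. For the tested members, unchanged means on the same side of the threshold. ASNS had no main test, so its values were judged by whether the log2 fold change moved by less than the larger group SD. It moved only in voom with no filter, the fit added after the data were seen. Genes called higher (1326) numbered 2360 with voom on whole reads and 883 with the replicate block, and 792 to 1115 with 1 library left out; genes called lower (1498) numbered 978 to 1224 with 1 library left out, the lowest without knockdown replicate 3. Among the lists, genes called higher (16) numbered 10 with no filter, 10 without a variance trend, 10 with the replicate block and 9 to 13 with 1 library left out. Genes called lower in the lists (14) numbered 6 with no filter, 7 without a variance trend, 7 with the replicate block and 6 to 8 with 1 library left out. Every gene named from these lists that lost its call with 1 library left out lost it also under another setting. That setting was no filter, no variance trend or the replicate block, or more than 1 of these. Fewer samples enter a fit with 1 library left out, more low genes enter with no filter, and fewer degrees of freedom remain with the block. Voom scales by the sums of recovered reads, which sets knockdown libraries slightly higher against control libraries than FPKM does. The part of this scaling in the voom counts was not tested, and neither were other causes.

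Replicates with the same number hardly deviated together (r across genes of 0.0125, 0.00862 and 0.0133 for numbers 1, 2 and 3). For libraries with different numbers r ran from -0.0142 to 0.0018, below each of these values. All r were close to 0, so the numbers were not taken to pair the libraries. Depth limits ASNS most, with 13 to 46 reads per library.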
